A study of Mus musculus with 7 samples.

Results

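Collagens are the triple-helical proteins of the extracellular matrix. The collagen genes were taken as every row of the abundance table whose symbol reads Col, a number, the letter a and a single digit, which gave 44 of 54309 genes. They comprise 11 genes for fibrillar collagens, 6 for the basement-membrane collagen type IV, and 27 others. Abundance was measured by RNA sequencing of lumbar (L4-6) dorsal root ganglia, which hold the cell bodies of sensory neurons. All samples were labelled as male C57bl/6 mice aged 6 to 8 weeks, all had a sciatic nerve injury, and no uninjured animals were among the samples used here. In the ZT20 group (4 samples) and the ZT8 group (3 samples) the ganglia were taken at Zeitgeber time 20 or 8, hours counted from lights on, 72 h after the injury. The ganglia had been digested with an enzyme mix that included a collagenase and enriched for neurons on an albumin gradient, so what remained of connective tissue cells is a limit on what these samples can show. The comparison asks which transcripts differ with clock time in a study of circadian time and axon regeneration.

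Each collagen molecule is built from 3 chains wound around one another, which may be copies of a single gene product or a mixture. Fibrillar collagens form the cables of connective tissue, type IV forms the sheet of the basement membrane, and the others decorate fibrils, form fine filaments or span the cell membrane. In peripheral nerve, collagens are made mainly by fibroblasts, by Schwann cells and other glia, and by vessel cells, and they line the tubes along which injured axons regrow. Collagen chains are hydroxylated and folded in the endoplasmic reticulum, exported, trimmed by proteases and cross-linked outside the cell.

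Values are TPM, transcript abundances corrected for transcript length and scaled to the same total in every sample, so levels can be set side by side between genes. The depth of each library is unknown. Some libraries stood apart from the rest. ZT8 replicate 2 had 18297 genes above 0 TPM, against 22541 to 25238 in the other 6 samples, and 14 of the 44 collagens were listed at 0 in it, against 2 to 7 elsewhere. The Y-linked gene Ddx3y was listed at 0 in ZT20 replicates 3 and 4, which goes against their label, and at 11.7 to 24.2 TPM in the other samples. Xist, the RNA that silences an X chromosome in females, reached 1.08, 2.21 and 2.30 TPM in replicates 2, 3 and 4 of ZT20 and at most 0.00467 TPM elsewhere. The library identifiers followed separate schemes in the groups, and a batch behind those schemes cannot be told apart from clock time. Nothing in the labels says whether a sample is 1 animal or a pool, and the p-values set each difference against the spread between these samples.

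The neuronal label was borne out by all 8 neuron markers listed, which summed to 13265 to 21636 TPM. Markers of cells that make collagen were also present. Their counts below are of markers past an adjusted p of 0.05 by limma, a threshold at which 12.8% of all tested genes were higher at ZT20 and 3.61% lower. At an unadjusted p under 0.05, where 26.0% of all tested genes were higher and 8.61% lower, there were 1 higher and 1 lower fibroblast marker, 3 lower satellite glial, 1 lower endothelial, 1 higher mural and 1 higher cartilage markers. The 8 fibroblast markers summed to 74.7 to 106 TPM at ZT20 and 83.7 to 200 TPM at ZT8, mostly from Dcn, and 0 of the 5 tested passed the threshold. Lum passed it, lower at ZT20, under median-ratio scaling and quantile normalization (limma adjusted p = 0.0453 and 0.0379). Markers of satellite glia, the cells that wrap sensory neuron bodies, summed to 7292 to 8892 TPM at ZT20 and 12356 to 15213 TPM at ZT8, mostly from Apoe, and 3 of 5 were lower at ZT20, while the other 2 had positive differences and did not pass. Endothelial markers summed to 101 to 116 TPM and 133 to 191 TPM, nearly all from Egfl7, the 1 of 2 tested that was lower, a call lost with correction for length and GC content and under quantile normalization (limma adjusted p = 0.102 and 0.0610). The other 5 vessel markers were at most 1.98 TPM in any sample, and of these Cldn5, the 1 tested, differed by 0.59, opposite in sign to Egfl7 (−0.50). Cdh5, not tested, was at 0.376 to 0.475 TPM at ZT20 and 0 to 0.243 TPM at ZT8. Markers of mural cells, the pericytes and smooth muscle of vessels, summed to 79.5 to 108 TPM and 48.2 to 83.1 TPM. Most of this came from Rgs5, at 74.2 to 104 TPM and 42.55 to 81.0 TPM. The next, Acta2, was at most 5.51 TPM, and 0 of the 3 tested mural markers passed the threshold. The 5 cartilage markers summed to 22.5 to 37.7 TPM at ZT20 and 12.01 to 23.2 TPM at ZT8, with Hapln1 the most abundant at 5.13 to 26.4 TPM and 0 of 3 tested past the threshold. Matn1 was the 1 of them listed at 0 in all 7 samples. Fewer cells of a type and less RNA per cell cannot be told apart in such bulk samples, and the part that cell composition plays in the collagen values was not tested.

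Collagen transcripts were scarce. Together the 44 genes summed to 103, 100.4, 118 and 137 TPM in ZT20 replicates 1 to 4 and to 113, 106 and 87.4 TPM in ZT8 replicates 1 to 3, which is 0.00874% to 0.0137% of all transcripts. The ranges overlapped. The 11 fibrillar genes made up 33.8% to 40.7% of each sum, the 6 type IV genes 3.91% to 8.95%, and the 27 others 51.3% to 60.4%. Fibrillar transcripts summed to 38.9 to 55.7 TPM at ZT20 and 29.6 to 42.8 TPM at ZT8. For type IV the sums were 7.58 to 11.0 TPM at ZT20 and 10.1, 4.14 and 5.05 TPM for ZT8, where replicates 2 and 3 lay below every ZT20 sample and replicate 1 did not.

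**Figure D1:**
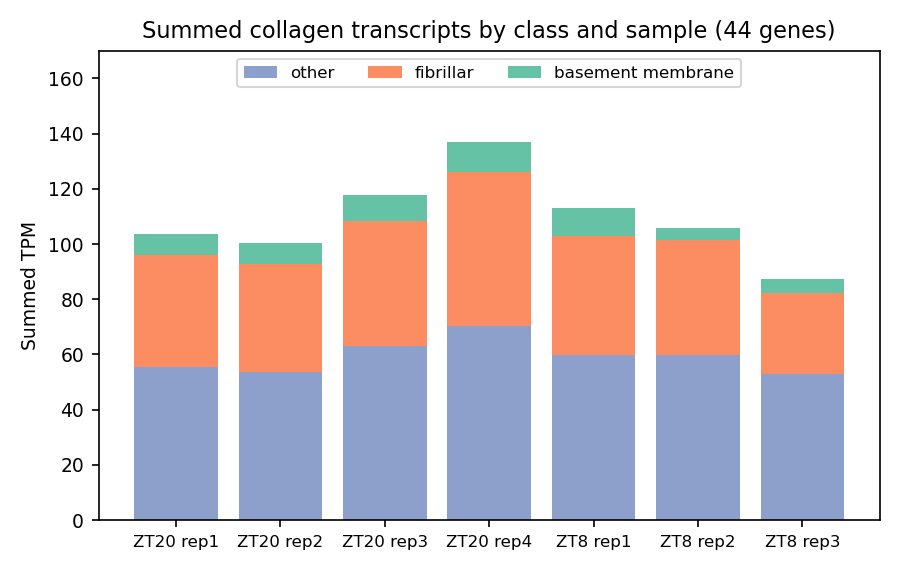
Summed TPM of the 44 collagen genes in each of the 7 samples, stacked by class (27 other, 11 fibrillar and 6 basement-membrane genes). The totals run from 87.4 TPM in ZT8 replicate 3 to 137 TPM in ZT20 replicate 4, and the basement-membrane share is smallest in ZT8 replicate 2 at 3.91%.

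Of the 44 genes, 24 had a mean of at least 1 TPM over the samples and were tested; 43 were above 0 in at least 1 sample. The tested collagens had means from 1.03 to 22.3 TPM with a median of 2.58 TPM, against a median of 12.7 TPM for all 14800 tested genes. By limma on log2(TPM + 1) with Benjamini-Hochberg adjustment over all tested genes, 1 of the 24 was higher at ZT20 at an adjusted p under 0.05 (Col14a1) and 0 were lower. Of all tested genes 12.8% were higher and 3.61% lower, so the collagens did not stand out by the number of calls. Their median log2 difference, ZT20 minus ZT8, was 0.15, and that of all tested genes 0.23. The difference was positive for 16 of the 24, against 66.4% of all tested genes. The unadjusted p was under 0.05 for 6 collagens, all higher at ZT20, against 26.0% of all genes higher and 8.61% lower; as given below, this direction turned with the correction for length and GC content together. Among the 24 tested collagens, 4 had groups that did not overlap, all higher at ZT20 (Col14a1, Col24a1, Col6a2 and Col7a1), against 24.5% of all genes higher and 8.72% lower.

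Direction depended on how the samples were scaled. Collagen mRNAs are long: the longest transcript of the tested members was 2924 to 11511 nt, with a median of 5794 nt against 3108 nt for all tested genes. After each sample's trend with transcript length and GC content was removed, the median collagen difference was −0.40 and that of all genes −0.0083, and 5 of 24 collagens had a positive difference against 49.2% of all genes. Col14a1 then missed the threshold, and Col18a1 was the 1 collagen past it, lower at ZT20, where 3.58% of all genes were higher and 5.26% lower. At an unadjusted p under 0.05 there were then 7 collagens, all lower at ZT20, against 11.9% of all genes higher and 15.1% lower. Under quantile normalization 2 collagens were at that level, both lower, against 15.8% of all genes higher and 15.1% lower. With median-ratio scaling 12 of 24 were positive against 51.2% of all genes, and 0 collagens passed by limma, with 3 at an unadjusted p under 0.05, all higher, against 15.9% of all genes. At the adjusted threshold 7.35% of all genes were higher and 8.47% lower with that scaling.

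**Figure D2:**
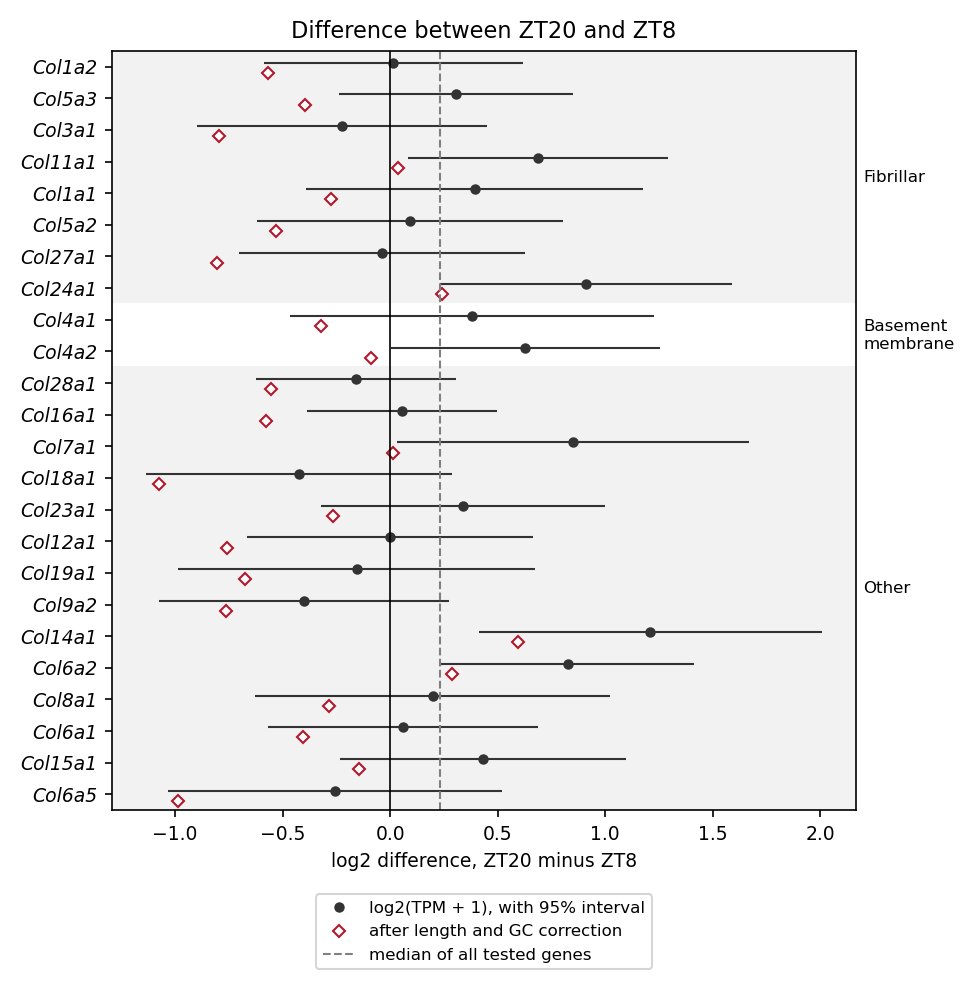
The log2 difference, ZT20 minus ZT8, of the 24 tested collagens, as circles with 95% limma intervals and, as open diamonds, after correction for transcript length and GC content. The dashed line marks the median of all tested genes at 0.23; the diamonds lie left of the circles, and 5 of the 24 stay above 0.

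Of the 11 fibrillar genes 8 were tested, those of types I, III, V, XI, XXIV and XXVII, with 6 positive and 2 negative differences, a median of 0.20, and 0 past the adjusted threshold by limma (2 at an unadjusted p under 0.05). Col1a2 (ENSMUSG00000029661), the α2 chain of type I collagen, was the most abundant of them. Its levels were 6.86, 9.98, 9.65 and 13.5 TPM for replicates 1 to 4 of ZT20 and 9.82, 12.7 and 7.13 TPM for replicates 1 to 3 of ZT8, with overlapping groups. The means were 10.01 ± 2.74 TPM (SD, n = 4) and 9.88 ± 2.78 TPM (SD, n = 3). Col1a2 thus differed by 0.015 on the log2 scale, with a 95% interval of −0.59 to 0.62. Col1a1 (ENSMUSG00000001506), the α1 chain, was at 2.99, 4.18, 4.61 and 5.88 TPM at ZT20 and 5.07, 3.47 and 1.44 TPM at ZT8, a log2 difference of 0.39 (limma adjusted p = 0.444). Type I collagen usually contains more α1 than α2 chains, yet the α2 transcript was the more abundant in 7 of 7 samples. The ratio of Col1a2 to Col1a1 in TPM was 2.09 to 2.39 in the ZT20 samples and spread more widely at ZT8, from 1.94 to 4.94.

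Col3a1 (ENSMUSG00000026043), which forms type III fibrils alongside type I, was at 5.67, 6.85, 5.09 and 11.3 TPM at ZT20 and 9.50, 9.99 and 5.87 TPM at ZT8. It too was above Col1a1 in 7 of 7 samples, and its log2 difference of −0.23 did not pass (limma adjusted p = 0.615). ZT20 replicate 4 held the highest value of Col1a1, Col1a2 and Col3a1 alike.

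Type V collagen nucleates fibrils, and its α3 chain is known from Schwann cells. Col5a3 (ENSMUSG00000004098) was at 11.9, 6.88, 10.1 and 8.33 TPM at ZT20 and 9.43, 6.35 and 6.15 TPM at ZT8, with overlapping groups and a log2 difference of 0.31 (limma adjusted p = 0.389). Col5a2 was at 1.56 to 3.57 TPM at ZT20 and 1.45 to 3.69 TPM at ZT8. Col5a1, the chain that most type V molecules of other tissues contain, was not tested because its mean was 0.411 TPM. In the 6 samples where Col5a1 was above 0, Col5a3 was 9.38 to 102 times as abundant, the highest ratio resting on a Col5a1 value of 0.0920 TPM. Col5a1 was at 0.397 to 0.777 TPM at ZT20 and at 0.0920, 0 and 0.326 TPM at ZT8, so its groups did not overlap. These values are close to 0, and 24.5% of all tested genes were higher at ZT20 without overlap. Col11a2, also untested and given below, did not overlap either.

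Type XI collagen, the partner of type II in cartilage fibrils, showed a similar imbalance of chains. Col11a1 (ENSMUSG00000027966) was at 6.79, 4.73, 7.45 and 6.78 TPM at ZT20 and 3.12, 2.62 and 5.41 TPM at ZT8. ZT8 replicate 3 lay above ZT20 replicate 2, so the groups overlapped. The log2 difference was 0.69 with an SE of 0.26, which did not pass (limma adjusted p = 0.105), and it was 0.036 with correction for length and GC content. Col11a2 was at 0.378 to 0.640 TPM at ZT20 and 0 to 0.329 TPM at ZT8, and Col2a1, the cartilage collagen that shares a chain with type XI, was at most 0.404 TPM.

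Col24a1 (ENSMUSG00000028197), a minor fibrillar collagen, was at 1.94, 1.81, 2.77 and 2.41 TPM at ZT20 and 1.43, 0.642 and 0.254 TPM at ZT8. Every ZT20 sample lay above every ZT8 sample. The log2 difference was 0.91 with an SE of 0.30 and missed the threshold (limma adjusted p = 0.0688). Of the 7 fits that each left out a replicate, it passed in 1, without ZT8 replicate 1 (limma adjusted p = 0.0370, and up to 0.170 in the others), and with correction for length and GC content the difference was 0.24 (limma adjusted p = 0.599).

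**Figure D3:**
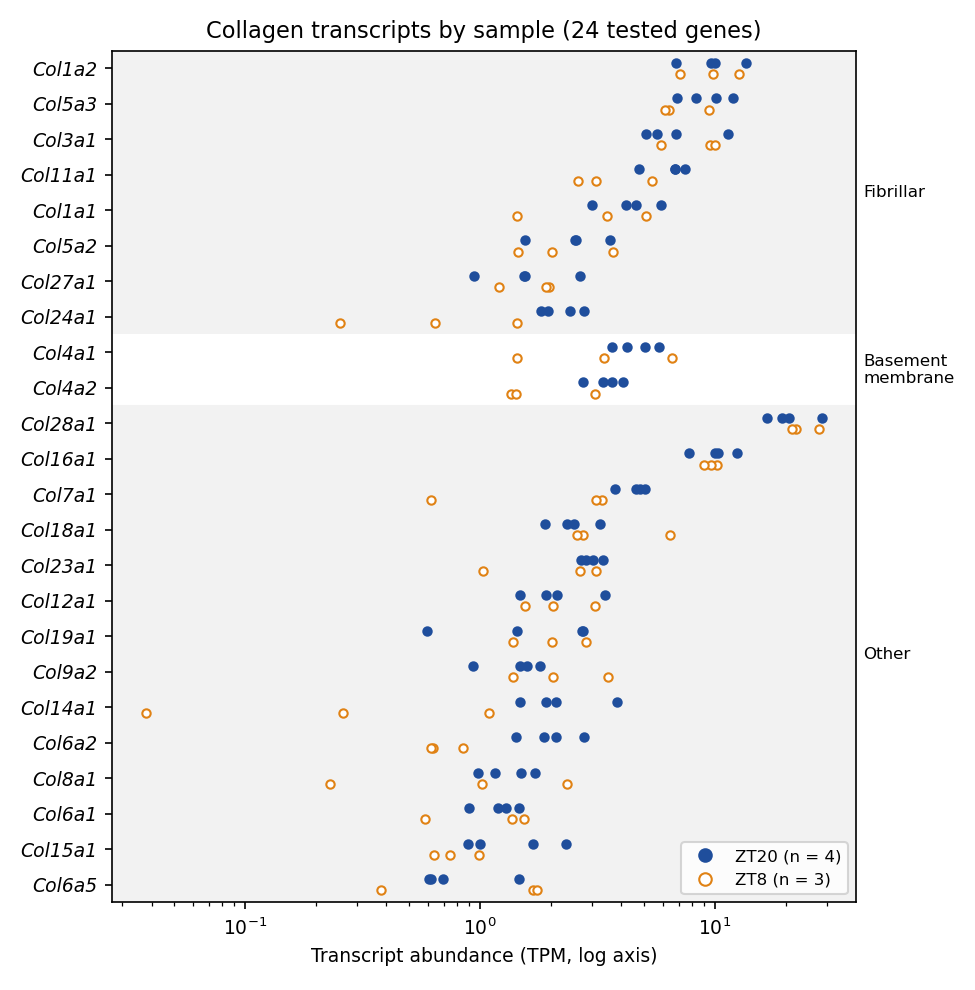
TPM of the 24 tested collagens on a log axis, each circle 1 sample, filled for ZT20 (n = 4) and open for ZT8 (n = 3), grouped by class. Col28a1 is the highest in all 7 samples, at 16.6 to 28.6 TPM, and Col14a1, Col24a1, Col6a2 and Col7a1 are the plotted members whose groups do not overlap.

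Type IV collagen is the scaffold of basement membranes, which surround Schwann cells, satellite glia and vessels. Its 6 genes lie in head-to-head pairs, and the common pair is Col4a1 with Col4a2. The RefSeq promoter windows of these genes (250 bases before to 50 after the annotated start, build GRCm38.p6) are shown because they share 78 bases, so the start regions of both chains lie on the same DNA. The Col4a1 window is chr8:11312777-11313076 on the minus strand and the Col4a2 window chr8:11312555-11312854 on the plus strand. Both are written 5′ to 3′ on the gene's own strand, and the capitals mark the shared stretch, which reads as reverse complements.
Col4a1: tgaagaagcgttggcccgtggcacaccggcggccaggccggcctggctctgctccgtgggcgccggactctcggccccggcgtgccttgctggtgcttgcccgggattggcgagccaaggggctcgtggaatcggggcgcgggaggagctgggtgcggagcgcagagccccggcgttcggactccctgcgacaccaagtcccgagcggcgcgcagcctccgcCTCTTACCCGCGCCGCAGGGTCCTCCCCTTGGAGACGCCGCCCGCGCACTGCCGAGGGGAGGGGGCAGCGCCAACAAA
Col4a2: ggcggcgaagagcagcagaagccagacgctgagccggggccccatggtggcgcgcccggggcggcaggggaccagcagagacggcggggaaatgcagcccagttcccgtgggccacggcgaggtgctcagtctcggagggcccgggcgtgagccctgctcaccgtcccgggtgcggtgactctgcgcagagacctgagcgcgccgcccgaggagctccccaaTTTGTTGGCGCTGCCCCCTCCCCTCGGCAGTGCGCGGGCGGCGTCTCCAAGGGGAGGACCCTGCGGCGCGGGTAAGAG

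The GC box GGGCGG, read on both strands, occurred 1 time in the Col4a1 window and 3 times in the Col4a2 window, and CCAAT 1 time in each. Across the 38 windows of the 35 collagen genes with a RefSeq window, 60.5% held GGGCGG, against 35.7% of all 32851 windows of that length, and 34.2% held CCAAT against 37.4%. The collagen windows were also richer in GC, with a median of 59.8% against 52.7% for all windows. The E-box CACGTG, the letters bound by CLOCK and BMAL1, was found in 0 of the 38 windows and in 7.15% of all windows, and TTATGTAA, a D-box, in 0 of 38 and 0.938%. These are counts of letters in short windows and say nothing of whether a factor binds.

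Col4a1 (ENSMUSG00000031502) was at 3.65, 4.21, 5.03 and 5.80 TPM at ZT20 and 6.56, 1.43 and 3.36 TPM at ZT8. Col4a2 (ENSMUSG00000031503) was at 3.35, 2.74, 3.64 and 4.06 TPM at ZT20 and 3.09, 1.35 and 1.43 TPM at ZT8. In both genes the groups overlapped through ZT8 replicate 1. The log2 difference was 0.38 for Col4a1 (SE 0.37, limma adjusted p = 0.491) and 0.63 for Col4a2 (SE 0.27, limma adjusted p = 0.143). After the length and GC correction they were −0.32 and −0.090. The α1 transcript was above the α2 transcript in 7 of 7 samples, by 1.09 to 1.54 times at ZT20 and by 2.12, 1.06 and 2.36 times in ZT8 replicates 1 to 3. The exons of these genes share 22 bases on opposite strands in GENCODE M21, so a few reads could not be told apart if strand was not used.

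The other 4 type IV chains, which build the basement membranes of kidney, eye and ear, were not tested, with means of 0.0198 to 0.313 TPM. Col4a3 was at 0.129 to 0.238 TPM at ZT20 against 0.0371, 1.35 and 0.0524 TPM at ZT8, so its highest value came from ZT8 replicate 2. An antisense gene, C430014B12Rik, shares 563 exon bases with Col4a3, and its reads are uncertain.

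**Figure D4:**
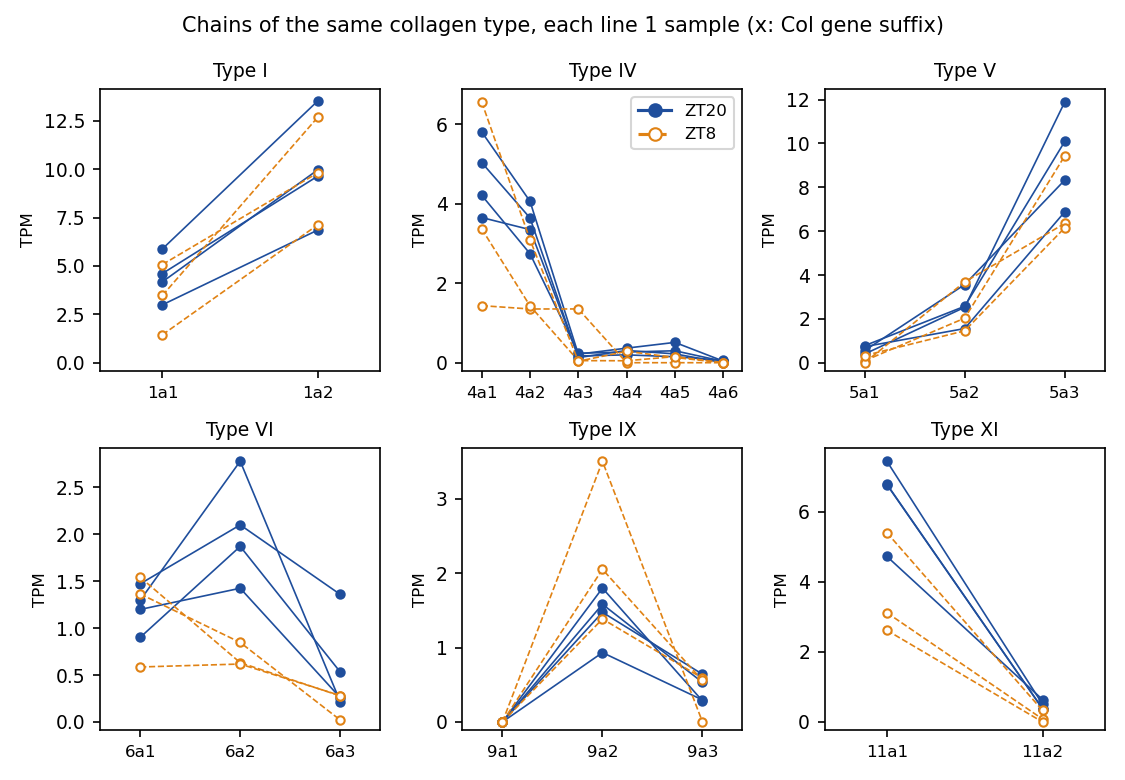
TPM of the chains of 6 collagen types, with 1 line per sample joining the chains (solid, ZT20; dashed, ZT8). In types I, IV, V, IX and XI the same chain is the highest in all 7 samples (Col1a2, Col4a1, Col5a3, Col9a2 and Col11a1), and in type VI the ZT20 and ZT8 samples differ in the level of Col6a2, at 1.43 to 2.78 TPM and 0.617 to 0.847 TPM.

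Of the 27 other collagen genes 14 were tested, with 8 positive and 6 negative differences and a median of 0.056. Col28a1 (ENSMUSG00000068794) encodes a collagen found mainly around glia of the peripheral nervous system. It was the most abundant collagen in all 7 samples, at 16.1% to 26.1% of all collagen TPM. It stood at 16.6, 19.3, 20.7 and 28.6 TPM in the ZT20 replicates and 22.1, 27.7 and 21.2 TPM in the ZT8 replicates. The groups overlapped, and the means were 21.3 ± 5.15 TPM (SD, n = 4) and 23.7 ± 3.48 TPM (SD, n = 3). The log2 difference was −0.16 with a 95% interval of −0.63 to 0.30 (limma adjusted p = 0.602). Of all tested genes 38.0% had a higher mean than Col28a1.

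The FACIT collagens sit on the surface of fibrils and link them to other matrix. Col16a1 (ENSMUSG00000040690), the most abundant of them, was at 12.5, 10.01, 10.3 and 7.77 TPM at ZT20 and 10.2, 9.65 and 9.01 TPM at ZT8. Its log2 difference was 0.054 with a 95% interval of −0.39 to 0.50, and its SE of 0.19 was the lowest among the tested collagens. Col12a1, another FACIT of dense connective tissue, differed by −0.0030 on the log2 scale (95% interval −0.67 to 0.66).

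Col14a1 (ENSMUSG00000022371), a FACIT that binds fibrils through decorin, was the 1 collagen past the threshold. It was at 1.49, 2.12, 1.92 and 3.85 TPM at ZT20 and 0.262, 0.0379 and 1.09 TPM at ZT8. Every ZT20 sample lay above every ZT8 sample, and ZT8 replicate 2 held the lowest value. The means were 2.34 ± 1.04 TPM (SD, n = 4) and 0.463 ± 0.554 TPM (SD, n = 3). Col14a1 was higher by a log2 difference of 1.21 with an SE of 0.35 (limma adjusted p = 0.0484). That call was narrow: it held in 1 of 7 fits that each left out a replicate, the fit without ZT8 replicate 3, and was lost without any of the 6 others, with limma adjusted p-values from 0.0395 to 0.127 and differences from 0.995 to 1.499. With the length and GC correction the difference was 0.60 (limma adjusted p = 0.283). Without ZT20 replicates 3 and 4, whose sex-linked transcripts go against the label, it was 0.99. ZT20 replicate 2, where Xist was at 1.08 TPM, stayed in that fit. There limma called 0 of 14800 genes, so the loss of the adjusted call was not particular to Col14a1. The unadjusted p was under 0.05 for 16.4% of all genes and for 0 of the 24 tested collagens, so Col14a1 missed that level too. Of the 5 tested fibroblast markers 1 had a positive and 4 a negative difference, with a median of −0.39 and 0 past the adjusted threshold by limma. The positive one, Pi16, was at 4.75 to 8.90 TPM at ZT20 and 3.02 to 3.65 TPM at ZT8, while Lum, the most negative, was at 6.27 to 9.08 TPM and 10.2 to 15.3 TPM.

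Type IX collagen is a FACIT of cartilage made of 3 different chains. Col9a1 was listed at 0 in all 7 samples. Col9a2 (ENSMUSG00000028626) was nonetheless at 1.47, 0.932, 1.80 and 1.58 TPM at ZT20 and 1.38, 3.50 and 2.05 TPM at ZT8, with overlapping groups and a log2 difference of −0.40 (limma adjusted p = 0.361). Col9a3 was at 0.283 to 0.641 TPM at ZT20 and 0 to 0.588 TPM at ZT8. Col9a2 was above Col9a3 in 7 of 7 samples.

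Type VI collagen forms beaded filaments around cells, in nerve around Schwann cells and fibroblasts, and its common form joins the α1, α2 and α3 chains. Col6a2 (ENSMUSG00000020241) was at 2.10, 1.43, 2.78 and 1.87 TPM at ZT20 and 0.632, 0.847 and 0.617 TPM at ZT8, and the groups did not overlap. Its log2 difference was 0.83 with an SE of 0.26 and missed the threshold (limma adjusted p = 0.0606). It passed in 1 of the 7 fits that each left out a replicate, the fit without ZT8 replicate 2, in which 16.0% of all genes were higher and 4.60% lower (limma adjusted p = 0.0384, and up to 0.158 in the others), and after the length and GC correction it was 0.29 (limma adjusted p = 0.517). Col6a1 (ENSMUSG00000001119), encoding its partner chain, was at 1.47, 1.20, 1.30 and 0.901 TPM at ZT20 and 1.54, 1.36 and 0.586 TPM at ZT8, with overlapping groups and a difference of 0.058 (limma adjusted p = 0.897). The ratio of Col6a2 to Col6a1 was therefore 1.19 to 2.14 at ZT20 and 0.410 to 1.05 at ZT8; this ratio was chosen after the values were seen and was not tested. Col6a3 was below both partners in 7 of 7 samples, at 0.216 to 1.36 TPM at ZT20 and 0.0205 to 0.282 TPM at ZT8.

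Col7a1 (ENSMUSG00000025650), the collagen of the anchoring fibrils that hold skin to its basement membrane, was at 4.60, 4.79, 3.76 and 5.03 TPM at ZT20 and 3.31, 0.619 and 3.12 TPM at ZT8. The groups did not overlap, and ZT8 replicate 2 was far below the other ZT8 samples. The log2 difference was 0.85 with an SE of 0.36 (limma adjusted p = 0.132), 0.39 without ZT8 replicate 2 and 0.012 when corrected for length and GC content.

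The multiplexins are basement-membrane collagens that carry sugar chains. Col18a1 (ENSMUSG00000001435), whose end fragment is the vessel inhibitor endostatin, was at 1.90, 2.34, 3.23 and 2.51 TPM at ZT20 and 6.46, 2.74 and 2.59 TPM at ZT8. Its groups overlapped, and ZT8 replicate 1 was far above the other 6 samples. Its log2 difference was −0.42 (limma adjusted p = 0.363), −0.082 without ZT8 replicate 1, and −1.08 after the length and GC correction, where it passed (limma adjusted p = 0.0460). Col15a1 differed by 0.43 and did not pass (limma adjusted p = 0.322).

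The remaining tested members were Col5a2, Col27a1, Col12a1, Col19a1, Col23a1, Col8a1 and Col6a5, with log2 differences from −0.26 to 0.34 and limma adjusted p-values from 0.434 to 0.995. Col23a1 and the untested Col25a1 are transmembrane collagens. Col23a1 was at 2.70 to 3.33 TPM at ZT20 and at 2.67, 1.03 and 3.12 TPM at ZT8, and Col25a1 was at 0.435 to 1.49 TPM and 0.136 to 0.444 TPM. The 20 genes that were not tested had means from 0 to 0.833 TPM, the highest that of Col22a1. The median SE of the difference was 0.29 for the tested collagens and 0.24 for all tested genes.

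Genes that modify, fold, export, trim, cross-link, bind or degrade collagen formed 7 lists with 81 genes, of which 59 were tested. By limma 7 were higher and 3 lower at ZT20, against the 12.8% and 3.61% of all tested genes, and the median difference was 0.16. The direction turned with the length and GC correction: the median was −0.27, 20 of 59 differences were positive against 35 as reported, and 4 genes were higher and 4 lower, against 3.58% and 5.26% of all genes. The lower gene gained was Timp3, a metalloproteinase inhibitor held in the matrix, at −0.62 (limma adjusted p = 0.0279) and −0.18 without the correction (limma adjusted p = 0.467). With median-ratio scaling the median was −0.038, with 5 higher and 4 lower, against 7.35% and 8.47% of all genes. The lower gene gained there was P3h4, from the list of helix-modifying genes, at −0.62 (limma adjusted p = 0.0489). Without that scaling P3h4 differed by −0.40 (limma adjusted p = 0.192). Of 12 tested helix-modifying enzymes 1 was higher, Plod3, a lysyl hydroxylase that also attaches sugars. Plod3 was at 31.0 to 45.2 TPM at ZT20 and 14.7 to 26.0 TPM at ZT8, a log2 difference of 0.82 (limma adjusted p = 0.0399). Of 8 folding and export genes 1 was higher, Mia3, which encodes TANGO1, the receptor that loads bulky procollagen into transport carriers. It was at 71.0, 63.0, 77.7 and 87.1 TPM at ZT20 and 41.2, 42.5 and 42.2 TPM at ZT8, a log2 difference of 0.81 with an SE of 0.14 (limma adjusted p = 0.00954). The Mia3 groups were well apart, and it also passed with median-ratio scaling, at 0.56, and with correction for length and GC content, at 0.65. The collagen chaperone Serpinh1 differed by 0.50 and did not pass (limma adjusted p = 0.182).

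Outside the cell, 1 of 7 trimming and cross-linking genes was lower, Loxl3, a lysyl oxidase. Loxl3 was at 1.16 to 2.21 TPM at ZT20 and 3.71 to 5.65 TPM at ZT8, a log2 difference of −1.11 (limma adjusted p = 0.0225). Of 8 degradation genes 3 were higher and 1 lower. Timp2, an inhibitor of matrix metalloproteinases, was at 117, 112, 129 and 116 TPM at ZT20 and 53.5, 45.8 and 68.8 TPM at ZT8, a log2 difference of 1.08 with an SE of 0.15 (limma adjusted p = 0.00534). Mmp9 and Mmp8, proteases abundant in neutrophils, differed by 2.42 and 2.32 (limma adjusted p = 0.0174 and 0.0448). Mmp8 overlapped between the groups through ZT8 replicate 2, at 16.8 TPM against 1.80 and 1.91 TPM in the other ZT8 samples. Ctsk, a collagen-degrading cathepsin of osteoclasts and macrophages, was at 3.32 to 5.34 TPM at ZT20 and 7.98 to 10.1 TPM at ZT8, a log2 difference of −0.96 (limma adjusted p = 0.0217).

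Of 7 tested collagen receptors 1 was higher and 1 lower. Itgb1, the β chain shared by the collagen-binding integrins, was at 166 to 220.3 TPM at ZT20 and 111 to 133 TPM at ZT8, a log2 difference of 0.72 (limma adjusted p = 0.0134). Lair1, an inhibitory collagen receptor of immune cells, was at 2.26 to 4.22 TPM at ZT20 and 6.44 to 11.2 TPM at ZT8, a log2 difference of −1.22 (limma adjusted p = 0.0178). Macrophage markers summed to 42.2 to 66.3 TPM at ZT20 and 42.9 to 107 TPM at ZT8, and 4 of the 6 had a negative difference (median −0.14). Mrc1 was the 1 past the threshold, higher at ZT20, and missed it with the length and GC correction and under quantile normalization (limma adjusted p = 0.104 and 0.0758). The difference of Aif1, −0.95, missed the threshold (limma adjusted p = 0.127). The part of macrophages in the Lair1 and Ctsk values was not tested. Among 13 partners of collagen in the basement membrane 1 was higher, the laminin chain Lama5, at 1.76 to 3.33 TPM and 0.0560 to 0.526 TPM (log2 difference 1.42, limma adjusted p = 0.0145). After the length and GC correction Lama5 differed by 0.55 and did not pass (limma adjusted p = 0.204), and likewise Plod3 (0.47, adjusted p = 0.0714) and Mmp8 (2.26, adjusted p = 0.0725). Plod3 and Mmp8 also missed with median-ratio scaling (limma adjusted p = 0.0764 and 0.0722) and quantile normalization (limma adjusted p = 0.0657 and 0.0842). Lama5 passed with median-ratio scaling and missed under quantile normalization (limma adjusted p = 0.0211 and 0.0503). None of the 4 tested collagen-binding matrix proteins passed by limma, and 1 had an unadjusted p under 0.05.

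**Figure D5:**
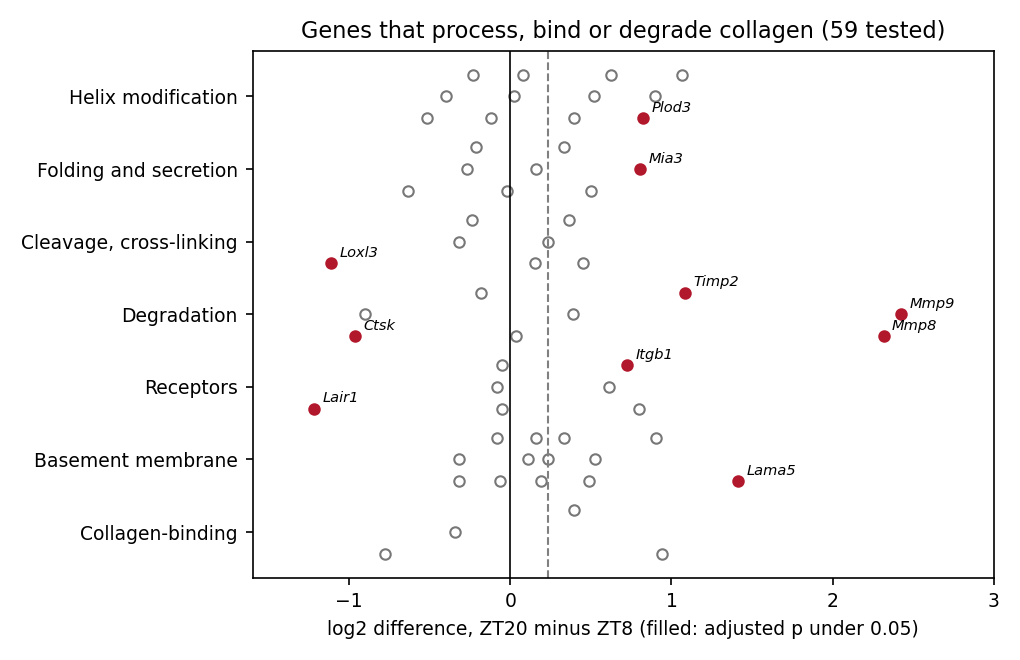
The log2 difference, ZT20 minus ZT8, of 59 tested genes that process, bind or degrade collagen, by list; filled circles passed an adjusted p of 0.05 and are named. The 7 higher genes lie between 0.72 and 2.42 and the 3 lower genes between −1.22 and −0.96; the dashed line marks the median of all tested genes at 0.23.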

How the data were processed

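The authors deposited 1 table of TPM with 1 column per sample (7 columns used, 0 unused). The submitters' processing notes name Trim Galore 0.6.6, Salmon 1.6.0, DESeq2 1.34.0 and the build GRCm39; the annotation release is not given in the sources used here. TPM sums to a fixed total per sample, so depth and counting error are unknown, and a rise in some genes lowers others. Genes averaging 1 TPM or more were analysed as log2(TPM + 1), a scale that understates the change of genes near 1 TPM, with limma 3.58.1 (intensity trend, two-sided, R 4.3.3) over all 7 samples, checked on simulated data. Transcript lengths (44 of 44 collagens) came from GENCODE M21 and promoters from RefSeq; the builds differ from GRCm39. Alternatives were another pseudocount or filter, median-ratio scaling, quantile normalization, loess correction (span 0.3) for length and GC content, the replicate block, and leaving out libraries.

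The members, gene lists and alternatives were chosen with earlier results of these data known. Named were collagens past the threshold, the 3 most abundant of each class, chains of types I, IV, V, VI, IX and XI, and at most 10 called pathway genes. Other collagens, and the single markers and pathway genes that were not called, were named after their values were seen.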

Additional observations from a re-analysis of the deposited data

Results flagged for a closer look

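Among the ZT20 samples, 2 of 58 values examined (the 44 collagens, 4 sums and 10 called pathway genes) had 1 sample whose gap to its nearest neighbour was above 0.829 of the group's range, where chance gives about 2.9. Col6a5, a type VI chain of skin, reached 1.46 TPM in replicate 3 of ZT20, where the remaining replicates lay between 0.607 and 0.693 TPM. Col6a6 reached 0.0129 TPM in replicate 1 of ZT20, with the remaining replicates listed at 0, where any value above 0 gives such a gap.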

How the results depend on the processing

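The cause of the changes below was not tested. The count of collagens higher at ZT20, 1 as reported, was 0 with a pseudocount of 0.1, without a filter, with a floor of 5 TPM, under either scaling, the length and GC correction, the replicate block (with or without that correction) and without ZT20 replicates 3 and 4; it was 0 to 1 when each replicate was left out. The difference of Col14a1, 1.21 as reported, was 2.56 with a pseudocount of 0.1, 1.21 without a filter, 1.09 under median-ratio scaling, 0.73 under quantile normalization, 1.02 with the replicate block and 0.44 with block and correction (limma adjusted p = 0.0644 to 0.535). The count lower, 0 as reported by limma, was 1 with the length and GC correction. Without a filter 1178 of all genes and 4 of the pathway genes passed, against 2433 and 10 as reported. With the length and GC correction 1304 of all genes passed. Without ZT20 replicates 3 and 4 limma called 0 of all genes, 0 pathway genes and 0 collagens, with 2425 (16.4%), 11 and 0 at an unadjusted p under 0.05. The loss of adjusted calls there was thus not particular to the collagens or the pathway genes. At the unadjusted level Col14a1 missed as well. When each replicate was left out, 624 to 3055 genes and 3 to 12 pathway genes passed (fewest without ZT20 replicate 3, most without ZT8 replicate 2; 5 and 6 pathway genes without ZT20 replicates 1 and 4), and the median collagen difference, 0.15 as reported, was 0.021 to 0.30. That median was 0.003 under median-ratio scaling (0.019 over all tested genes), −0.23 under quantile normalization (0.0046 over all tested genes), −0.40 with the length and GC correction and −0.38 with block and correction together.

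The replicate numbers share only a number: same-numbered samples had correlations of −0.014, 0.15 and 0.083 in their deviations from the group means, and 1 of 3 ZT8 samples correlated best with its own number. With the replicate block 1174 of all genes and 4 pathway genes passed, with block and correction 520 and 3, and collagen differences that turned under the block were Col1a2 (−0.13) and Col5a2 (−0.037).

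Collagens whose difference changed sign were the following, among them Col7a1, Col4a2 and Col15a1 with differences of 0.85, 0.63 and 0.43 as reported. Under median-ratio scaling these were Col1a2 (−0.21), Col16a1 (−0.17), Col5a2 (−0.089) and Col6a1 (−0.074). Quantile normalization turned Col1a2 (−0.31), Col16a1 (−0.27), Col5a3 (−0.025), Col23a1 (−0.036), Col5a2 (−0.19), Col8a1 (−0.33) and Col6a1 (−0.31). The length and GC correction turned Col1a2 (−0.57), Col16a1 (−0.58), Col5a3 (−0.40), Col4a1 (−0.32), Col1a1 (−0.27), Col4a2 (−0.090), Col23a1 (−0.27), Col5a2 (−0.53), Col8a1 (−0.29), Col6a1 (−0.40) and Col15a1 (−0.15). With block and correction they were Col1a2 (−0.68), Col16a1 (−0.45), Col5a3 (−0.34), Col4a1 (−0.39), Col1a1 (−0.37), Col7a1 (−0.018), Col4a2 (−0.14), Col23a1 (−0.28), Col5a2 (−0.63), Col8a1 (−0.33), Col6a1 (−0.31) and Col15a1 (−0.27). Without ZT20 replicates 3 and 4 they were Col1a2 (−0.20) and Col5a2 (−0.12).

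Leaving out each replicate in turn also turned the sign of 9 collagens: Col1a2 ranged from −0.18 to 0.20, Col16a1 from −0.044 to 0.16, Col4a1 from −0.032 to 0.79, Col5a2 from −0.11 to 0.35, Col12a1 from −0.17 to 0.18, Col19a1 from −0.33 to 0.099, Col27a1 from −0.20 to 0.11, Col8a1 from −0.16 to 0.56 and Col6a1 from −0.15 to 0.19.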

Other observations

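Some collagens that were too scarce to test had their highest value in ZT8 replicate 2, the library with the fewest genes above 0 TPM. Col13a1, a transmembrane collagen of the neuromuscular junction, was at 1.67 TPM there, at 0 in 4 of the 6 other samples and at most 0.207 TPM in the rest. Col6a4 was at 1.45 TPM there and at 0.0882 to 0.673 TPM in the other samples. These genes were picked after their values were seen.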
